A study of Caenorhabditis elegans with 4 samples.

Results

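Of the 7494 nuclear NURF-1 peaks in the series-wide peak list of Caenorhabditis elegans L3 larvae, 717 lay crowded together in 112 runs of 5 or more. A run was made by joining neighbouring peaks with fewer than 2000 bp between the end of the first and the start of the next, and the 717 peaks are those of runs that held at least 5. The other 6777 nuclear peaks lay alone or in runs of 2 to 4. The study used chromatin immunoprecipitation followed by sequencing (ChIP-seq), in which protein fixed to DNA is pulled down with an antibody and the attached DNA is sequenced. The animals were wild-type strain N2, a population of males and hermaphrodites at 20 degrees Celsius, and the antibody was an affinity-purified rabbit polyclonal (SDQ3525) against NURF-1. Both groups shared strain, genotype and stage: 2 NURF-1 ChIP samples and 2 input samples, the inputs being DNA of the same kind of extract without the pull-down. The input samples were not analysed here, and whole larvae were used, so no tissue can be assigned to a peak.

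NURF-1 is the worm counterpart of BPTF, the largest protein of NURF, a complex that remodels nucleosomes. In it an ATPase of the ISWI family (ISW-1 in the worm) slides nucleosomes along DNA, and NURF-1 provides contacts with modified histone tails and with other proteins. In C. elegans nurf-1 and isw-1 are known to act against the synthetic multivulva genes in the development of the vulva. A peak caller such as MACS reports an interval where ChIP reads pile up, so a broad, shallow stretch of enrichment can be reported either as 1 wide interval or as many small ones.

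The data are 3 peak lists made by the authors, 2 of single ChIP replicates and 1 of the whole series, and nuclear peaks numbered 6319 in replicate 1 and 5354 in replicate 2. Coordinates are on WormBase WS220, as the authors' files give them. The score of each peak is the authors', its scale is not given in the sources used here, and scores were compared within a list only. Read counts are not part of the lists, and the depth is unknown. Members were chosen by the spacing of series-wide peaks. The series-wide list most likely holds reads of the same ChIP libraries as the replicate lists, though how it was made is not given. Every comparison below is therefore a description without a test, and intervals for shares are Wilson 95% intervals, which cover counting error only. Neighbouring peaks are not independent, so the intervals are too narrow by an amount not measured. The labels do not state whether the replicates were separate cultures.

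The runs were short stretches of chromosome. Their spans had a median of 5630 bp, with the shortest at 2843 bp and the longest at 16622 bp. All 112 spans together took up 692229 bp, which is 0.690% of the nuclear chromosomes. Peaks filled 349993 bp of that, or 50.6%, while series-wide peaks cover 3.66% of the nuclear chromosomes as a whole. The members made up 9.57% of nuclear peaks (8.92 to 10.3) and 9.53% of the base pairs under them. Per run, the share of the span under peaks had a median of 47.3% and ranged between 23.6% and 93.6%. These densities follow from the rule itself.

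Most runs were at the lower limit of size. There were 57 runs of 5 peaks, 27 of 6, 8 of 7, 6 of 8 and 1 of 9. Above these stood 13 runs of 10 or more: 6 of 10, 3 of 11, 2 of 15 and 2 of 17. The 13 large runs held 157 members, or 21.9% of them. Just outside the rule were 129 runs of 4 peaks. The 57 runs of 5 had a median span of 4909 bp and a median covered share of 44.6%, and the 129 runs of 4 had 3658 bp and 51.1%. The highest score in the run had a median of 65.1 in runs of 5 and 49.2 in runs of 4. In runs of 5, 143 of 285 peaks (50.2%) were found in both replicates, against 246 of 516 (47.7%) in runs of 4. In neither replicate were 67 of 285 (23.5%) in runs of 5, against 95 of 516 (18.4%) in runs of 4.

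Gaps between neighbours inside runs were small. The 605 gaps had a median of 384 bp and quartiles of 161 and 861 bp, and 191 of them (31.6%) were under 200 bp. In runs of 2 to 4 the 1825 gaps had a median of 585 bp, and 455 (24.9%) were under 200 bp. In runs of 10 or more the median gap was 248 bp. The largest gap inside a run was 1991 bp and the smallest gap beside one was 2007 bp, on either side of the limit of 2000 bp. No gap under 51 bp occurred in any of the 3 lists, and 90 series-wide gaps were 60 bp or less. The gap beside a run had a median of 9200 bp.

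Member peaks were weak by score. Their median score was 7.23, against 14.1 for nuclear peaks outside such runs, and their median rank stood at 33.2% of the nuclear series-wide list, against 52.1% outside. Low scores were not particular to runs of 5 or more. The median score within a run had a median of 9.94 in runs of 4, 9.48 in runs of 5 and 8.52 in all 112 runs. A score above the list's median of 13.0 was reached by 229 of 717 members, or 31.9% (28.6 to 35.4). By construction 50.0% of all nuclear peaks are above it, and 3518 of 6777 outside peaks (51.9%) were. The lowest 10% of nuclear peaks by score held 133 members, which is 18.5% of members, against 618 outside peaks or 9.12%. The top 10% held 33 members (4.60%), against 717 outside peaks (10.6%).

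Widths differed less than scores. The median width was 360 bp for members and 385 bp outside, and the narrowest peak in both sets was 146 bp. When nuclear peaks were sorted by score and cut into 10 classes with nearly equal numbers, members had the larger median width in all 10. In class 4, for example, the medians were 374 bp for 86 members and 248 bp for 660 outside peaks, and in class 7 they were 800 bp for 50 members and 502 bp for 702 outside peaks. Among peaks scored above the median, members had a median width of 706 bp and outside peaks 625 bp, and 55 of 229 members (24.0%, 18.9 to 29.9) were 1 kb or wider, against 486 of 3518 outside peaks (13.8%, 12.7 to 15.0). Among peaks at or below the median score the medians were 264 and 224 bp, and 11 of 488 members (2.25%) were 1 kb or wider, against 22 of 3259 outside peaks (0.675%). Of those 11 wide and weak members, 9 were in runs of 10 or more. The 11 lay in 7 runs, and those of 1033, 1093, 1103, 1244 and 1550 bp were all in 1 run on chromosome II. The widest member lay on chromosome V at 10605682 to 10609838 and covered 4157 bp with a score of 13.9. Replicate 1 had 4 peaks inside it and replicate 2 had 6.

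The runs differed in what they were made of. In 65 runs 2 or more members scored above the median of the list, in 27 runs exactly 1 did, and in 20 runs none did. The 65 runs with several stronger peaks held 392 members, and their highest score had a median of 74.9. The 27 runs with a single stronger peak held 167 members. Their highest score had a median of 30.1 and their second highest a median of 8.43, a gap that the choice of these runs builds in. The 20 runs without a stronger peak held 158 members and nowhere scored above 11.9. Of the large runs, 6 of 13 runs of 10 or more (46.2%, 23.2 to 70.9) had no member above the median, against 14 of 99 smaller runs (14.1%, 8.61 to 22.3). The 2 intervals do not overlap, but the runs were chosen on the list that gave the scores.

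Position within a run was compared with score. The strongest member stood at an end in 45 of 112 runs (40.2%), while end positions make up 34.0% of a run on average, which lies within the interval of the first share (31.6 to 49.4). In runs of 5, 50 of 114 end members (43.9%, 35.1 to 53.0) scored above the median, against 61 of 171 inner members (35.7%, 28.9 to 43.1). In runs of 6 to 9 the shares were 39.3% of 84 and 34.0% of 191, and in runs of 10 or more 26.9% of 26 and 9.92% of 131, with intervals of 13.7 to 46.1 and 5.89 to 16.2. Neighbours inside a run resembled each other little in score: over 605 neighbouring pairs Spearman's rho was 0.211, and over 1825 pairs in runs of 2 to 4 it was 0.107. These pairs share peaks and the local signal, and the correlations are a description only.

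The 4 largest runs show how different the stretches were. The longer of 2 runs of 17 peaks lay on chromosome II at 9808046 to 9824649. Its 17 peaks filled 76.6% of 16604 bp, with a median width of 730 bp, and scored between 1.81 and 11.7, all below the median of the list. Replicate 1 had 19 peaks in this span and replicate 2 had 16. Of the 9071 bp under a peak of either replicate, 1838 (20.3%) lay under both. The series-wide peaks thus fill most of a long stretch at low scores, of which replicate 1 peaks cover 35.6% and replicate 2 peaks 30.1%. The share under both also depends on how much of a span each replicate covers, here and in the runs below, and that part was not separated.

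The run of 15 peaks on chromosome I at 10204121 to 10219213 was filled to a similar degree and scored a little higher. Its peaks filled 82.1% of 15093 bp and scored between 5.76 and 15.2, with 8 of 15 above the median. Replicate 1 had 14 peaks there and replicate 2 had 15, and 79.6% of the base pairs under either were under both. Replicate 1 peaks covered 63.9% of this span and replicate 2 peaks 61.5%. The other run of 15, on X at 4042732 to 4056401, was sparse. Its peaks filled 36.6% of 13670 bp and scored between 2.04 and 10.2. Replicate 1 had 3 peaks in it and replicate 2 had 5, and 9 of its 15 members were in neither replicate.

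The second run of 17 lay on chromosome II at 14598720 to 14608472. Its peaks were narrow, with a median width of 267 bp, and scored between 1.79 and 9.48. Replicate 1 and replicate 2 each had 6 peaks in the span, yet no base pair was under a peak of both. A single member overlapped a peak in both lists, which can happen because the 2 replicate peaks touch different parts of it.

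**Figure D1:**
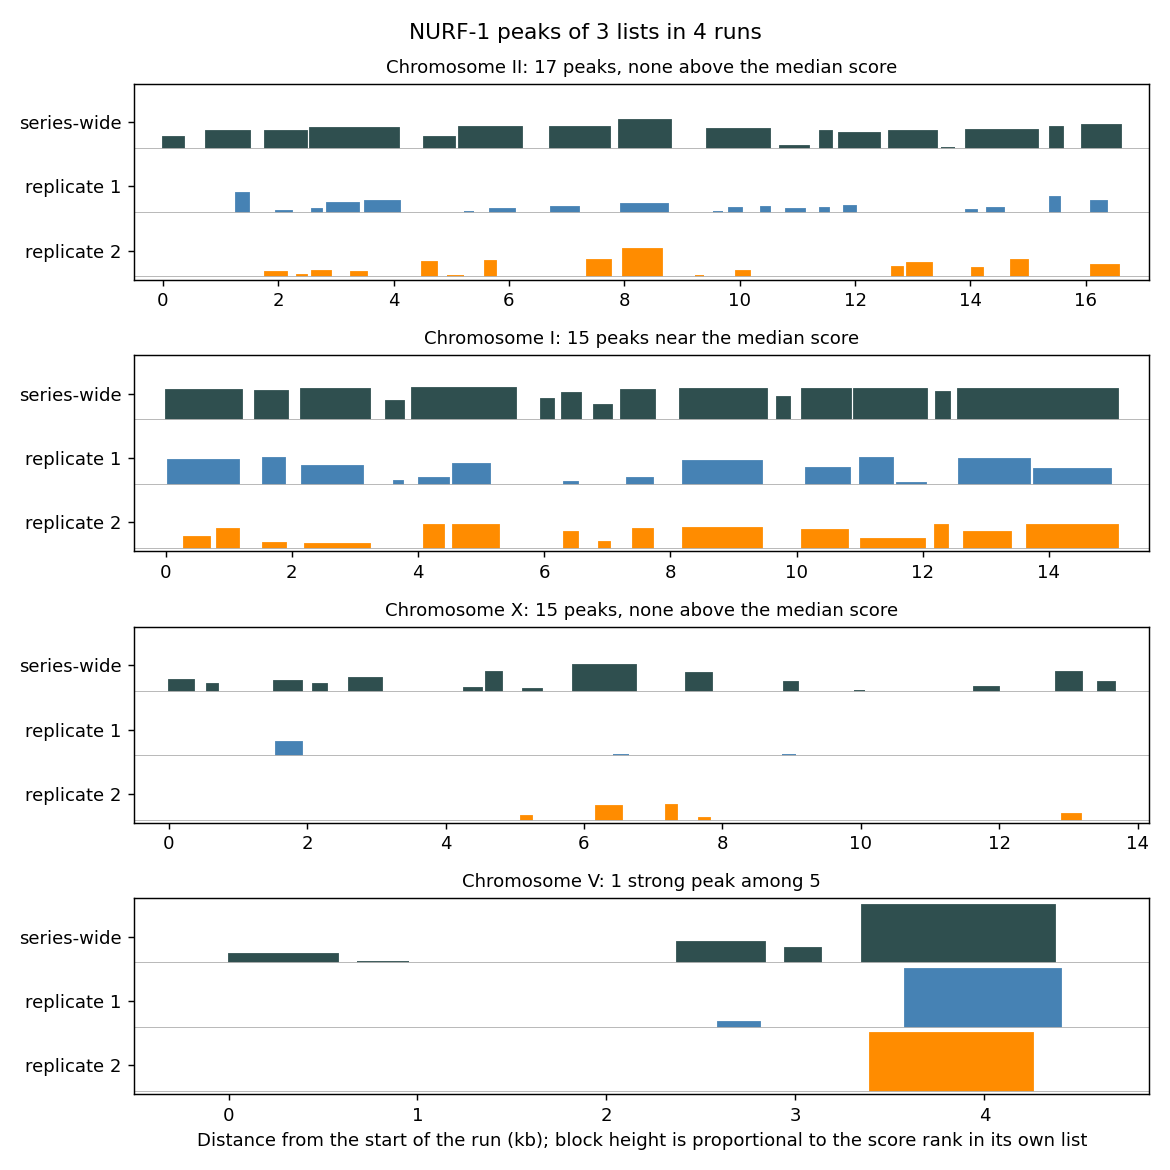
Peaks of the series-wide list and of each replicate in 4 runs, drawn as blocks along the distance from the start of the run in kb; the height of a block is the rank of its score within its own list. The run of 17 on chromosome II shares 20.3% of replicate base pairs and the run of 15 on chromosome I shares 79.6%, while the run of 5 on chromosome V is a single strong peak beside weak ones.

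The other large runs varied as much. The run of 11 on chromosome II at 10541686 to 10552441 had a strong peak at its end with a score of 64.7, above a next highest of 12.8. The run of 11 on V at 17384197 to 17394375 was similar on a smaller scale, with 19.8 at its end and 8.15 next. The run of 11 on I at 10945972 to 10952996 had 6 replicate 1 peaks and 2 replicate 2 peaks. The run of 10 on V at 7913104 to 7924995 filled 73.6% of 11892 bp, with 11 replicate 1 and 12 replicate 2 peaks, and 48.9% of replicate base pairs were shared. On IV 2 runs had 10 peaks. The longer, at 2703807 to 2713915, was 35.4% covered with a highest score of 71.0. The other, at 8572656 to 8581652, was 74.6% covered with a highest score of 16.5, and replicate 2 peaks lay over 54.7% of it, against 15.7% for replicate 1 peaks. On III the largest run had 10 peaks at 6566962 to 6573181, scored at most 6.78, and held no replicate 2 peak at all. The 2 runs of 10 on X, at 4033431 to 4040483 and 10361190 to 10368876, scored at most 8.50 and 11.9, and 7 and 4 of their members were in neither replicate.

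The longest and the fullest runs were better supported. The longest span, 16622 bp on V at 17115492 to 17132113, held 8 peaks, of which 7 scored above the median, with a median score of 34.8. Replicate 1 had 15 peaks in it and replicate 2 had 13, so both replicates cut the stretch more finely than the series-wide list, and 73.7% of their base pairs were shared. The fullest run, on IV at 11070896 to 11075918, had 5 peaks over 93.6% of 5023 bp, with gaps between 52 and 120 bp. All 5 of its peaks scored between 17.9 and 29.0 and were found in both replicates, which shared 86.2% of base pairs. The emptiest run, on IV at 2606561 to 2614736, had 6 peaks over 23.6% of 8176 bp.

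The strongest member of any run lay on chromosome V at 18533207 to 18534229. With a score of 255 it ranked 3 in the nuclear series-wide list, and the other 4 peaks of its run scored between 2.25 and 7.78. Replicate 1 had 2 peaks in the span and replicate 2 had 1, and 3 of the 5 members were in neither. This run of 5 is thus 1 strong site with weak peaks on its left side.

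The next question was how far the crowded peaks are seen in each replicate. Of the 717 members, 467 overlapped a replicate 1 peak by at least 1 bp (65.1%, 61.6 to 68.5), where 77.6% of all nuclear peaks did. In replicate 2 it was 384 (53.6%, 49.9 to 57.2), where 64.9% of all did. A peak in both replicates was found for 316 members, or 44.1% (40.5 to 47.7), against 4029 of 6777 outside peaks, or 59.5% (58.3 to 60.6), and 58.0% over all nuclear peaks. Members in neither numbered 182, or 25.4% (22.3 to 28.7), against 973 outside peaks, or 14.4% (13.5 to 15.2), and 15.4% over all. Replicate 1 alone held 151 members (21.1%), close to the 19.7% over all nuclear peaks. Replicate 2 alone held 68 (9.48%), against 6.95% over all.

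The lower overlap went with the lower scores. In class 1, the lowest of the 10 score classes, none of 133 members (Wilson upper bound 2.81%) and 3 of 618 outside peaks (0.485%) were in both replicates. In classes 8 to 10 all 38, 27 and 33 members were, as were all 710, 721 and 717 outside peaks. In class 3 the shares were 17.9% of 95 members (11.5 to 26.8) and 10.4% of 692 outside peaks (8.34 to 12.9), and in class 4 they were 38.4% of 86 (28.8 to 48.9) and 23.3% of 660 (20.3 to 26.7). In class 7 they were 96.0% of 50 members (86.5 to 98.9) and 99.1% of 702 outside peaks (98.1 to 99.6). The share in neither replicate was 50.5% of members and 44.7% of outside peaks in class 2, and 10.5% and 7.73% in class 4. When outside peaks were weighted to the score classes of the members, 40.8% were in both replicates, against 44.1% of members and 59.5% of outside peaks unweighted. In neither replicate were 25.4% of members, against 23.6% of outside peaks weighted in this way. For replicate 1 the shares were 65.1% of members and 67.0% of weighted outside peaks, and for replicate 2 they were 53.6% and 50.1%. Here and below, the weighting was done for an overlap of at least 1 bp only. It leaves width aside, although members had the larger median width in all 10 classes. The part of width in these shares was not tested.

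**Figure D2:**
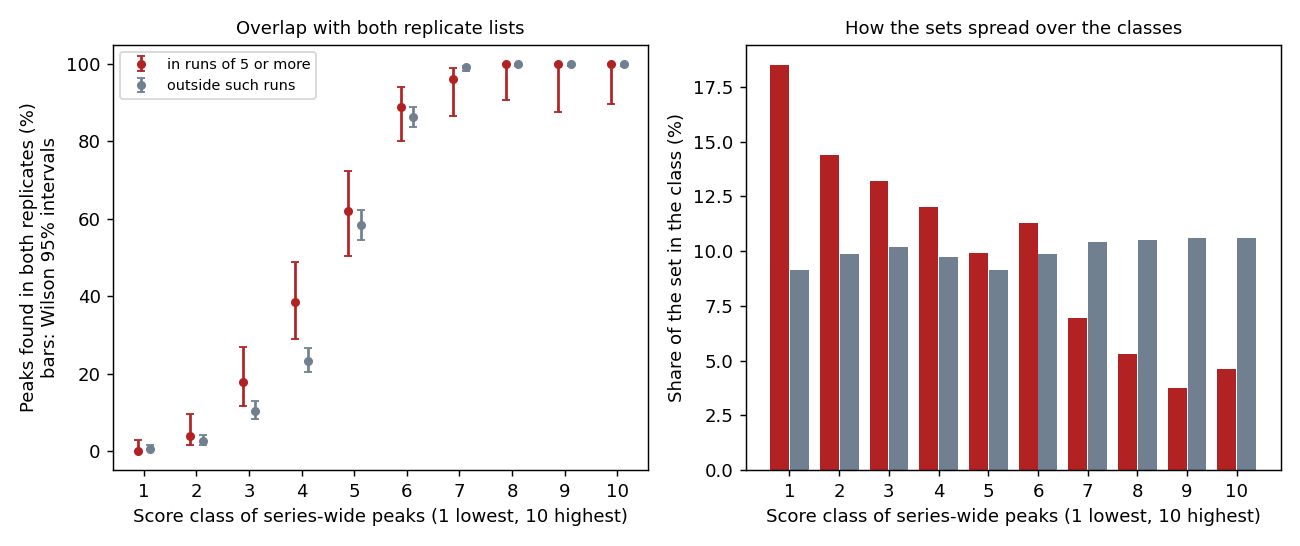
Left, the share of peaks found in both replicates in each of 10 score classes, for peaks in runs of 5 or more and outside such runs, with Wilson 95% intervals; right, the share of each set that falls in the class. Members are higher in classes 2 to 6, most in class 4 (38.4% and 23.3%) and class 3 (17.9% and 10.4%). They are slightly lower in classes 1 and 7, and both sets are at 100% in classes 8 to 10. In class 1 are 18.5% of members against 9.12% of outside peaks.

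Overlap with the replicates was then given for the kinds of run, which the split by score sets in large part. In runs with 2 or more stronger peaks 240 of 392 members (61.2%, 56.3 to 65.9) were in both replicates, close to the 58.0% over all nuclear peaks. In runs with a single stronger peak it was 58 of 167 (34.7%, 27.9 to 42.2), and in runs without any it was 18 of 158 (11.4%, 7.33 to 17.3). Outside peaks weighted to the score classes of these 3 sets gave 58.2%, 27.6% and 11.3%. Members in neither replicate were 15.8%, 31.7% and 42.4% of the sets. Runs of 10 or more had 46 of 157 members in both (29.3%, 22.7 to 36.8), and smaller runs had 270 of 560 (48.2%, 44.1 to 52.4). Above the median score were 12.7% of members of the large runs and 37.3% of those of the smaller ones, and outside peaks weighted to their score classes gave 25.7% and 45.0%.

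Base pairs were compared in the same way. Of the base pairs under members, 63.0% were also under replicate 1 peaks and 51.4% under replicate 2 peaks, against 77.0% and 62.7% of those under outside peaks. Within the spans of the runs, 51.9% of the base pairs under a peak of either replicate were under both, against 60.8% outside the spans. The per-run share had a median of 62.7% in the 65 runs with several stronger peaks, where the lowest was 21.8%. It was 38.4% in the 27 runs with a single one. Among the 20 runs without a stronger peak the highest value was 21.0%, and in 12 of them no base pair was under both replicates, including 1 run without any replicate peak. In these 20 runs replicate 1 and replicate 2 peaks covered a median of 16.1% and 6.82% of the span. In the 65 runs with several stronger peaks they covered 36.0% and 30.2%. The shared share depends on this coverage as well, and the part due to it was not tested. Replicate 1 peaks reached into 1.47% of the 342236 gap base pairs of the runs and replicate 2 peaks into 0.892%. Gaps are by definition free of series-wide peaks, and that list most likely holds the same reads, so low values are largely built in. No value was computed for base pairs between peaks elsewhere.

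**Figure D3:**
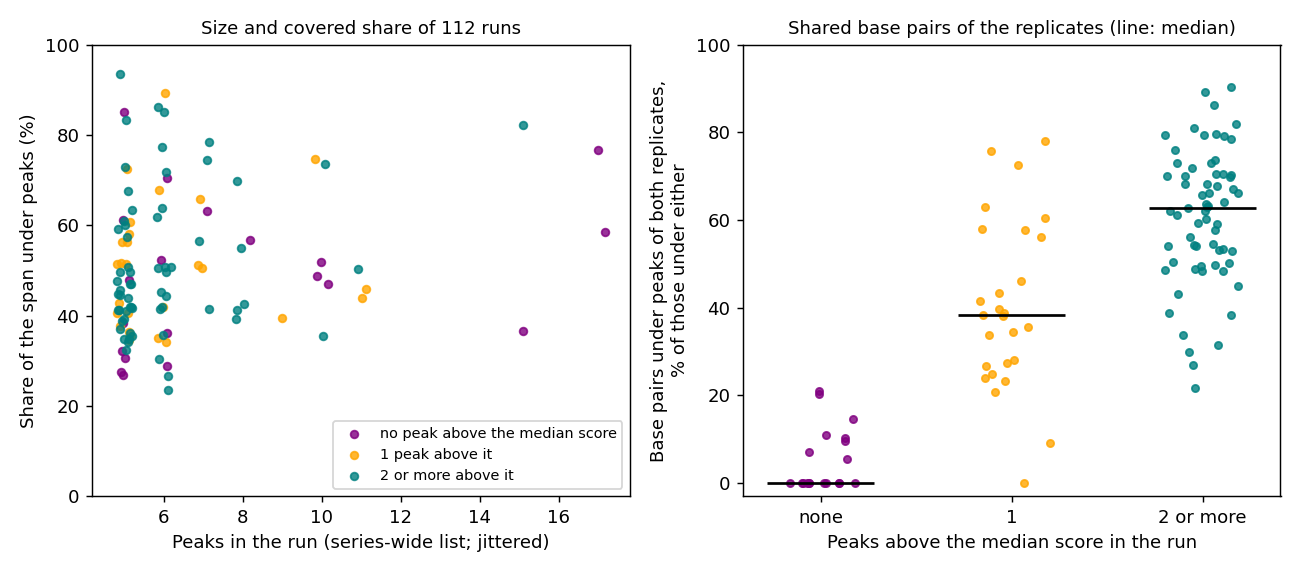
Left, the share of the span under series-wide peaks against the number of peaks in each of 112 runs, coloured by how many of its peaks score above the median of the list; right, the base pairs under peaks of both replicates as a percentage of those under either, for each run, with medians as lines. The 20 runs without a stronger peak reach 21.0% at most, and the 65 runs with 2 or more have a median of 62.7%.

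Each replicate was also asked whether it resolves the same stretches into 5 or more peaks. A run of the series-wide list held 5 or more replicate 1 peaks in 46 of 112 cases (41.1%, 32.4 to 50.3) and 5 or more replicate 2 peaks in 33 (29.5%, 21.8 to 38.5). Both replicates had 5 or more in 23 runs, and neither did in 56. A replicate had more peaks in the span than the series-wide list in 7 runs for replicate 1 and in 8 for replicate 2. No replicate 1 peak fell in 3 runs and no replicate 2 peak in 6. Every member was in both replicates in 3 runs, and at least 1 member was in 101 runs. In 84 runs at least 1 member was in neither. Such counts depend on how many peaks a run holds. Over all nuclear peaks 58.0% were in both replicates and 15.4% in neither. The same counts were not made for runs of 4, so these are a description only.

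Applying the same spacing rule to each replicate list gave fewer crowded peaks. Replicate 1 had 353 of 6319 nuclear peaks (5.59%) in 54 runs of its own, and 38 of the 54 overlapped a series-wide run. Replicate 2 had 293 of 5354 (5.47%) in 45 runs, of which 29 overlapped one. Seen from the series-wide list, 38 of 112 runs overlapped a run of replicate 1 (33.9%), 28 a run of replicate 2, 18 a run of both, and 64 a run of neither. The 3 lists differ in length, and the part of that in these counts was not tested.

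A peak of 1 list can correspond to several peaks of another. Among members found in a replicate, 41 of 467 (8.78%, 6.54 to 11.7) overlapped 2 or more replicate 1 peaks and 41 of 384 (10.7%, 7.97 to 14.2) 2 or more replicate 2 peaks. Outside the runs it was 4.54% (4.02 to 5.13) and 6.36% (5.68 to 7.11). The reverse was rare: 7 of 510 replicate 1 peaks and 4 of 436 replicate 2 peaks that touched a member touched 2 or more. Replicate peaks that overlapped a member were also low in their own lists. Their median rank was at 32.9% in replicate 1 and 34.2% in replicate 2, against 51.6% and 51.7% for the other nuclear peaks.

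**Figure D4:**
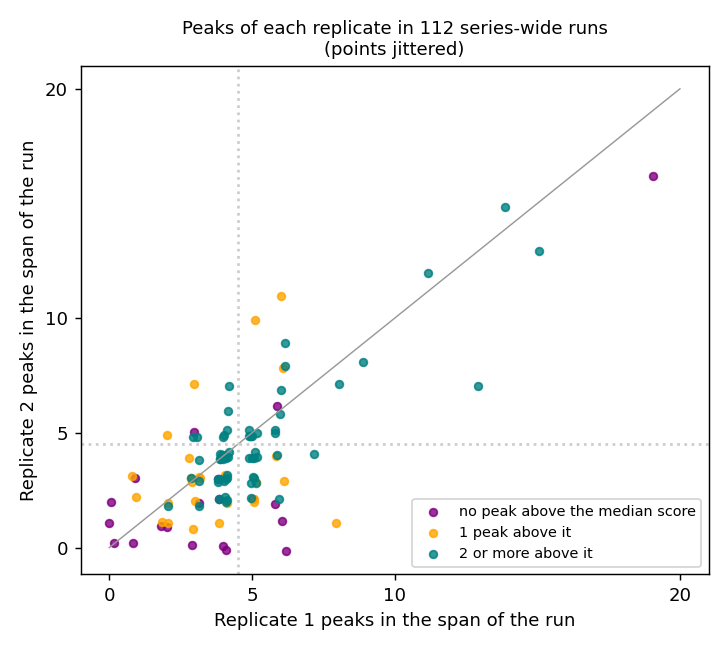
Replicate 2 peaks against replicate 1 peaks in the span of each of 112 series-wide runs, with points shifted slightly to show overlaps, the line of equal numbers and dotted lines between 4 and 5 peaks. In 23 runs both replicates have 5 or more peaks, and the run with 19 replicate 1 and 16 replicate 2 peaks has no series-wide peak above the median score.

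Every nuclear chromosome carried runs. Chromosome IV had 30 runs and the largest share of its peaks in them, 173 of 1374 or 12.6% (10.9 to 14.5). The shares were 9.32% on III (23 runs), 9.31% on I (23 runs), 9.06% on V (16 runs), 8.79% on X (9 runs) and 7.66% on II (11 runs). The intervals of these 5 overlap one another. The interval of IV overlaps that of X, meets those of I and III at 10.9%, and lies above those of V and II. Per Mb there were 1.71 runs on IV, 1.67 on III, 1.53 on I, 0.765 on V, 0.720 on II and 0.508 on X. Chromosome IV had 78.5 peaks per Mb and I had 104. Thus IV had the most runs per Mb, narrowly ahead of III, without the most peaks. The runs were scattered, with a median of 468624 bp to the next run on the same chromosome, and 4 neighbouring pairs stood under 10000 bp apart. When each chromosome was cut into fixed bins of 1 Mb from its start, the fullest bin held 6 runs, between 2 and 3 Mb on IV.

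Members were spread over chromosome arms and centres in nearly equal numbers. Arms were taken as the outer 25% at either side. On autosomes 340 of 648 members (52.5%, 48.6 to 56.3) lay in arms, against 2902 of 6061 outside peaks (47.9%, 46.6 to 49.1). Members and outside peaks parted by score. Above the median score 121 of 219 members (55.3%, 48.6 to 61.7) were in arms, against 1279 of 3132 outside peaks (40.8%, 39.1 to 42.6). At or below it the shares were 51.0% of 429 members and 55.4% of 2929 outside peaks. On IV 61.8% of members and 51.5% of outside peaks were in arms, and on I 44.5% and 49.1%. Where runs of 10 or more peaks were left out, the autosomal share of members was 57.4%, and with a gap limit of 1000 bp it was 42.9%, below the outside peaks of the 2000 bp rule.

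The X chromosome had members with the lowest median score of the 6 nuclear chromosomes. Of its 69 members, 15 were in both replicates (21.7%, 13.6 to 32.8), against 434 of 716 outside X peaks (60.6%, 57.0 to 64.1). On autosomes the share of members in both ranged between 41.1% on I and 54.1% on III. The median score of X members was 5.09, against 15.2 for outside X peaks, and 5 of 9 X runs had no peak above the median of the list. A single stretch gave 31 of the X members: 3 neighbouring runs at 4026023 to 4056401 held these peaks within 30379 bp, with 12 replicate 1 and 12 replicate 2 peaks. The first of them, at 4026023 to 4030373, was the strongest, with 6 peaks over 85.0% of its span and scores between 12.3 and 20.9, and all 5 stronger peaks of the stretch were in it. Without this stretch 9 of 38 X members (23.7%) were in both replicates. In X arms lay 53 of 69 members (76.8%, 65.6 to 85.2), against 416 of 716 outside peaks (58.1%, 54.5 to 61.7), and 22 of 38 (57.9%) without the stretch.

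**Figure D5:**
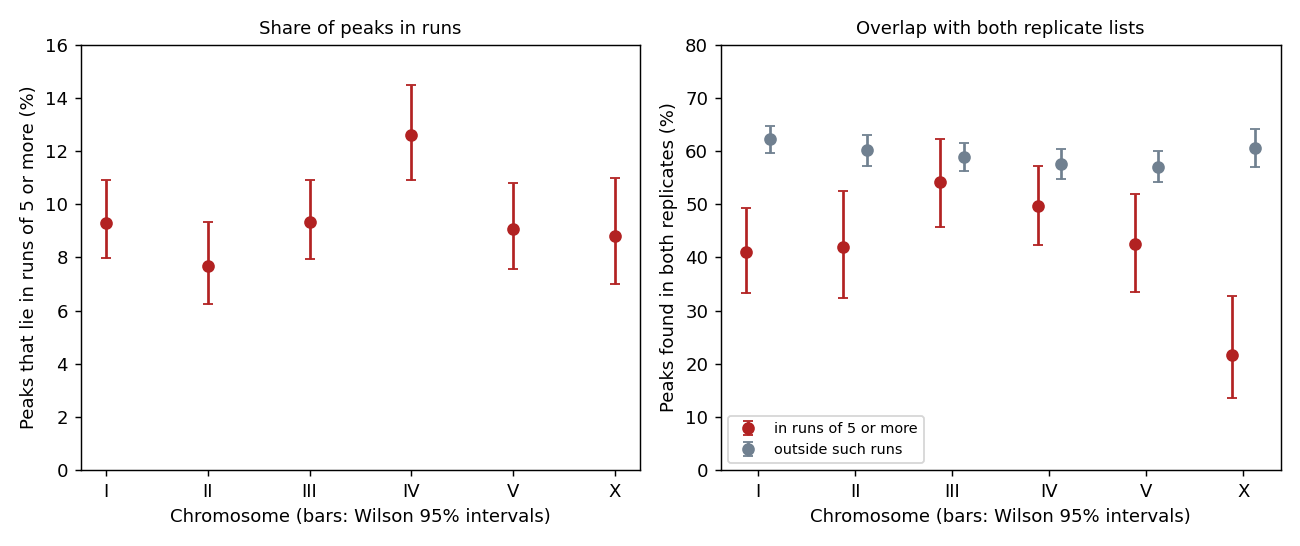
Left, the percentage of nuclear peaks of each chromosome that lie in runs of 5 or more; right, the percentage of peaks found in both replicates for peaks in such runs and outside them, with Wilson 95% intervals. Chromosome IV has the largest share of peaks in runs, 12.6%, and X members have the lowest share in both replicates, 21.7%, against 60.6% of X peaks outside runs.

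No run reached a chromosome end. The first and last peaks of all 6 nuclear chromosomes were single peaks or stood in runs of 2, so the peaks at chromosome ends contribute no member.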

How the data were processed

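NURF-1 ChIP peaks of 2 replicates and of the series were used as deposited. Peaks carry the label of MACS and coordinates on WormBase WS220, per the file headers, and the submitters' processing notes name BWA and ce10. The peak score in each list is the authors', on a scale not given in the sources used here. Versions, threshold, control, treatment of multiply mapping reads and the way the replicates were combined are not given there either. A lower calling threshold or deeper library can add weak peaks and so lengthen runs.

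Starts and ends were read as 1-based base pairs. Runs, overlaps (at least 1 bp), Wilson 95% intervals and 10 score classes were computed with Python 3.11.15, numpy 2.4.6, pandas 2.3.3 and scipy 1.17.1, and drawn with matplotlib 3.10.9. Run joining and overlaps were tested on simulated lists. Chromosome lengths were the last base under a peak in any list. The members, lists and splits were chosen with earlier results of these data known. Named are the 8 runs with the most peaks and the largest on each chromosome (ties by longer span, which picked 1 of 6 runs of 10 for the eighth place), the longest, fullest and emptiest, and the run of the strongest member. The other runs of 10 were added after their values were seen. Alternatives that leave out large runs or the dense stretch of X were chosen after seeing the data. No genome or gene annotation of WS220 was used here, so no gene or sequence is given.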

Additional observations from a re-analysis of the deposited data

Results flagged for a closer look

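The mitochondrial peaks are given here because the nuclear comparisons leave that sequence out. The same spacing rule joins all 18 mitochondrial series-wide peaks into 1 run at 23 to 13791 of MtDNA, with 58.2% of its 13769 bp under peaks and scores between 3.81 and 44.5. Replicate 1 had 1 mitochondrial peak and replicate 2 had 3. It holds more peaks than any nuclear run, whose largest size was 17.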

How the results depend on the processing

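The number of members follows the rule. With a gap limit of 1000 bp it was 375 peaks (5.0% of nuclear peaks), with 1500 bp 7.50% of nuclear peaks, with 3000 bp 1076 (14.4%), with runs of 4 or more 1233 (16.5%) and with runs of 6 or more 432 (5.76%). Joining only peaks above the median score left 37 (0.987% of them). The share of members in both replicates was 36.0% with an overlap of 200 bp, or of the whole peak where narrower (51.2% outside). It was 32.4% with at least 50% of the peak overlapped (52.5% outside) and 16.6% with replicate peaks above their median score (35.7% outside). It was 37.9% with a gap limit of 1000 bp, 48.4% with 3000 bp, 40.0% in runs of 6 or more and 48.2% without runs of 10 or more. The share in neither was 40.2%, 31.1% and 76.2% under the 3 overlap choices (29.4%, 16.3% and 54.4% outside) and 22.0% with 3000 bp. With 1 replicate left out, 53.6% to 65.1% of members were in the remaining one and 34.9% to 46.4% were not. The share in autosome arms was 42.9% with 1000 bp, 47.6% in runs of 6 or more, 57.4% without runs of 10 or more and 71.3% with arms widened to the outer 33.3% at either side. The share of members on X, 9.62%, was 14.9% with 1000 bp, 6.41% with 3000 bp, 12.5% in runs of 6 or more and 5.54% without the dense stretch of X. With 4 or more replicate peaks asked for, 72.3% of runs passed in replicate 1 and 49.1% in replicate 2. Of 47 alternative values 36 moved beyond their interval or by over 1.5 times, and the cause was not tested. Part of these moves is built in. Leaving out 1 replicate, widening the arms or asking for 4 peaks cannot lower the share. The number and the share of members are the same count, judged in 2 ways. The 36 of 47 is therefore no measure of how firm the results are. No paired analysis was possible because the comparisons come from no test and the input samples have no values here. Depth is unknown, so a weak peak missing from a replicate is not shown to be absent there.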
